A study of Mus musculus with 6 samples.

Results

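A group of 10 receptor genes of immune cells was followed through heme treatment of mouse bone marrow cultures: the G protein-coupled receptors Gpr65, Gpr132, Gpr84, Gpr35, Gpr183, Ptger4, P2ry14 and Fpr2, and the adhesion receptors Adgre4 and Adgre5. They were chosen by name, with earlier results of these arrays known, and each was to be read from the probe set naming only that gene with the highest mean level. Of the 10, 9 had such a probe set, each just 1, among 19938 genes measured. Fpr2 was not analysed here. All 9 were among the 11516 genes whose highest array reached the median of all values (5.37 on the log2 scale, called the level filter below), and each of them reached it on at least 1 vehicle array.

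Marrow from Spic(igfp/igfp) mice was cultured in medium with 10% serum and 20 ng/ml GM-CSF, a cytokine that grows macrophages and dendritic cells from marrow. On day 6 the cultures were given heme at 80 µM (the unit is typed as µm in the labels) or the vehicle, a saline solution with ammonium hydroxide, and adherent cells were taken after 6, 24 or 72 h, on 1 array for each treatment and time. All 6 arrays thus share the genotype and the GM-CSF. Floating cells were discarded, and none of the sources used here says what the igfp allele carries. The labels do not say whether arrays came from separate mice or cultures. Array medians ran from 5.34 to 5.45, the highest on the 6 h heme array. The number of arrays limits the precision.

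These receptors span the cell membrane and report on the surroundings of a myeloid cell. Most pass a signal to heterotrimeric G proteins, which raise or lower cyclic AMP or free calcium. Gpr65 and Gpr132 belong to the proton-sensing receptors, Gpr84 responds to medium-chain fatty acids, Gpr183 to oxysterols, Ptger4 to prostaglandin E2 and P2ry14 to UDP-glucose. The natural ligand of Gpr35 is debated. Adgre4 and Adgre5 are adhesion receptors with epidermal growth factor-like domains, of the family of F4/80, the macrophage marker encoded by Adgre1.

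With heme, Gpr84, Adgre4, Gpr132 and Gpr65 rose over the 3 times, and the other 5 receptors did not pass the test. The 250 bases before an annotated start are shown for each of the 4 that rose, 5′ to 3′ on the gene's strand, from RefSeq promoters of GRCm38.p6. The starts used for Gpr132 (112860916) and Gpr84 (103310438) lie inside the gene spans given below. The stretch shown for Gpr132 is thus wholly within the gene span, and that for Gpr84 partly. Capitals mark the only match in the 4 stretches to the motifs searched.
Gpr65 (chr12:98268385-98268634, plus strand): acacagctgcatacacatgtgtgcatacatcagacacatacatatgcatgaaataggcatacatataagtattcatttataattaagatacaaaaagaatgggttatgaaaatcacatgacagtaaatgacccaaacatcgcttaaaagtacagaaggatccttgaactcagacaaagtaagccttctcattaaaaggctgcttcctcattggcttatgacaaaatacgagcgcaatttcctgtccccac
Gpr132 (chr12:112860917-112861166, minus strand): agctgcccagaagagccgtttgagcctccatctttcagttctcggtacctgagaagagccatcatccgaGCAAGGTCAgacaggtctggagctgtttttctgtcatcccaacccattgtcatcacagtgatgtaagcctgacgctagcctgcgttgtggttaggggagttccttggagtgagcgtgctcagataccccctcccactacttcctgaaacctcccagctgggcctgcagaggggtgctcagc
Adgre4 (chr17:55749734-55749983, plus strand): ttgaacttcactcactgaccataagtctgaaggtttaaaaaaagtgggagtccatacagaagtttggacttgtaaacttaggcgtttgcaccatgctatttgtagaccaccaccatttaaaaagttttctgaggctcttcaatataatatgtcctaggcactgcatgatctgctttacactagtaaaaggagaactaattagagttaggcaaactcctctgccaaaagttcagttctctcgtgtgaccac
Gpr84 (chr15:103310439-103310688, minus strand): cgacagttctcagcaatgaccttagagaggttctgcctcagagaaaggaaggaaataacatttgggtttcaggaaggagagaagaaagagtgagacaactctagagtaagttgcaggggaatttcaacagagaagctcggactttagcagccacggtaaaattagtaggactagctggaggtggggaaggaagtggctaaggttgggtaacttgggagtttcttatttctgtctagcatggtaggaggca
Promoters of 300 bases, 250 before and 50 after the start, were searched on both strands for AP-1 (TGANTCA), ARE (TGACNNNGC), CRE (TGACGTCA), NF-kB, PU.1 (GAGGAAGT) and C/EBP (TTGCGCAA). An ARE is the antioxidant response element bound by NRF2. Gpr132 held 1 ARE match, GCAAGGTCA on the minus strand, beginning 181 bases before the start used and so inside the gene span. Of all 32851 promoters, 12.4% held one. Adgre4 held 1 PU.1 match, ACTTCCTC on the minus strand, beginning at base 42 after the start and so outside the stretch shown, a motif present in 3.2% of promoters. The windows of Gpr65 and Gpr84 held no such letters. Among the other receptors, AP-1 letters lay in 1 of 2 promoters of Gpr35 and in 2 of 4 of P2ry14, against 7.81% of all promoters, and ARE letters in that of Gpr183 and in the other of Gpr35. Both starts of Gpr35 lie inside its gene span, as do all of P2ry14 but the one at 59153492. The table had promoters for 9 of the 10 receptors.

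Of the 9 receptors measured, 4 passed an adjusted p of 0.05 upward and 0 downward in a limma fit of treatment and time on all 6 arrays, with 5 at an unadjusted p below 0.05, all 5 higher with heme. Over all 11516 genes the upward share was 1.13%, the downward share 0.59% and the share at an unadjusted p below 0.05 was 10.6%. The median differences of the 9 at 6, 24 and 72 h were 0.89, 0.43 and 0.88, against -0.10, -0.02 and 0.03 over all genes kept. With levels below the filter raised to it, the receptors' median at 6 h was 0.80. Since the receptors were chosen with results known, these counts and medians are descriptions. Times are not replicates, and the p-values reflect the spread of the difference from one time to the next, combined with variance shared across genes. The shared part weighs more (7.17 prior against 2 residual degrees of freedom). The limma p-values and intervals thus do not rest on a gene's own printed SD alone. Without the 24 h pair 0 of the 9 passed in limma, with 4 at an unadjusted p below 0.05, and 12 genes passed in all. The differences without it kept their direction, at 1.30 for Gpr132, 0.91 for Gpr65, 1.13 for Adgre4 and 1.53 for Gpr84, and that fit has 1 residual degree of freedom. With every level below the filter raised to it, an alternative added after seeing the data, 0 of the 9 and 3 genes in all passed in limma, with 5 receptors at an unadjusted p below 0.05.

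**Figure D1:**
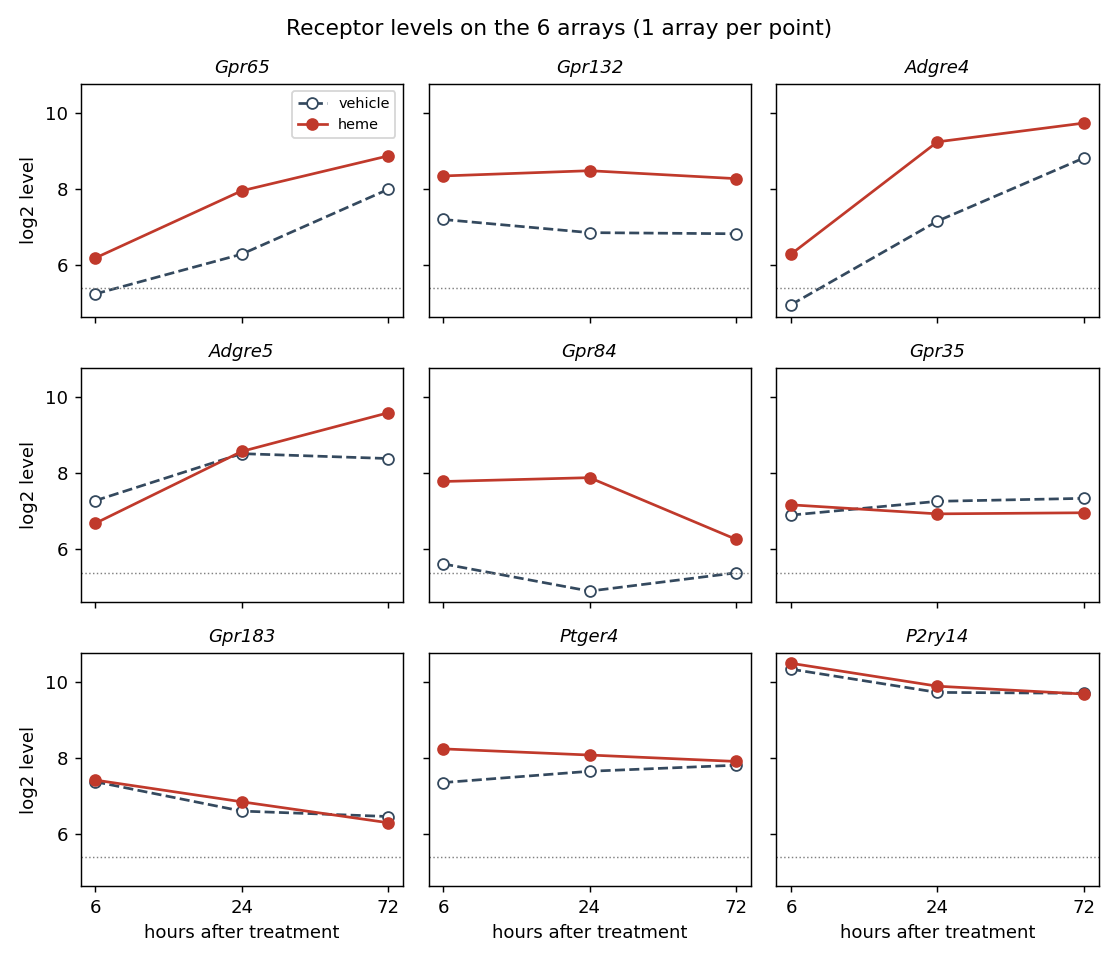
Log2 level (vertical axis) of the 9 receptors at 6, 24 and 72 h (horizontal axis, evenly spaced), 1 array per point, filled red for heme and open for vehicle. The dotted line is the level filter of 5.37. Heme points of Gpr132 and Gpr84 all lie above their vehicle points, while both lines of Gpr65 and Adgre4 are higher at each later time.

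At one time point, differences of 2-fold or more, all upward, were counted in 3 receptors at 6 h (Gpr84, Gpr132 and Adgre4, but 2 with levels raised to the filter, where Adgre4 is at least 1.87-fold higher), in 4 at 24 h (the same with Gpr65) and in 2 at 72 h (Gpr132 and Adgre5). The shares over all genes kept were 0.964%, 1.42% and 1.25%. In 5 of 9 receptors heme was higher at each of the 3 times, as in 12.8% of genes kept. In 3 of 9, namely Gpr84, Gpr132 and Ptger4, the lowest heme array lay above the highest vehicle array, as in 5.4% of genes kept. For scale, Spic, the transcription factor gene for which the mice are named, differed by 3.76, 4.40 and 3.48 at 6, 24 and 72 h, and Hmox1, heme oxygenase 1, by 2.76, 2.74 and 2.27.

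**Figure D2:**
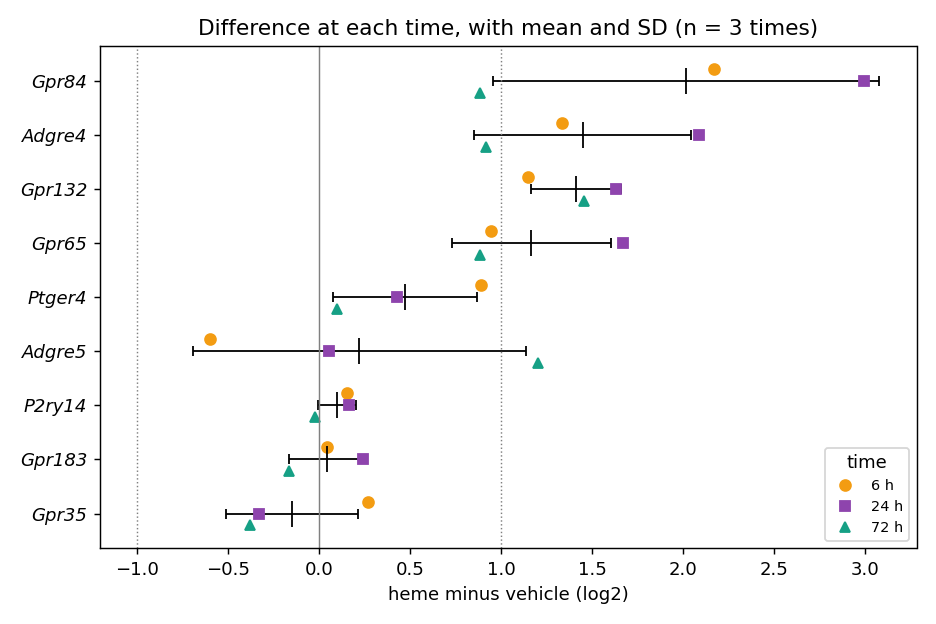
Heme minus vehicle on the log2 scale (horizontal axis) for each receptor, with circles for 6 h, squares for 24 h and triangles for 72 h. The black tick and bar are the mean and SD over the 3 times. Dotted lines stand at a 2-fold difference. Points of Gpr84, Adgre4, Gpr132, Gpr65 and Ptger4 all lie to the right of 0.

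Gpr132 is grouped with the proton-sensing receptors and has been linked to oxidised lipids. Its gene spans chr12:112850873-112868416 (GRCm38.p6). At 6, 24 and 72 h, vehicle levels were 7.19, 6.84 and 6.81, and heme levels were 8.34, 8.48 and 8.27. The groups did not overlap, and the 6 values fell into a narrow heme band and a narrow vehicle band with little change over time. The difference was 1.15, 1.63 and 1.45, that is 2.22-fold, 3.10-fold and 2.74-fold, with a mean of 1.41 ± 0.25 (SD, n = 3 times; limma, adjusted p = 0.00230). Gpr132 had the smallest SD of the 4 receptors that rose, and it ranked 70, 65 and 54 of 11516 from the highest difference, with levels below the filter raised to it for all genes, as in the ranks that follow. It was the 1 receptor that passed without the time term (the other 3 did not), and without the 24 h pair it did not pass (limma, adjusted p = 0.115).

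Gpr65, also called TDAG8, raises cyclic AMP when the medium turns acid. It lies at chr12:98268635-98276722. Vehicle levels were 5.23, 6.28 and 7.98 at 6, 24 and 72 h, the first below the level filter, and heme levels were 6.17, 7.95 and 8.87. Heme was the higher array at each time, but the groups overlapped, because the level was higher at each later time in both. The 72 h minus 6 h difference was 2.76 with vehicle (at least 2.61) and 2.69 with heme. The 24 h heme array (7.95) lay close to the 72 h vehicle array (7.98).

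The heme minus vehicle difference of Gpr65 at 6, 24 and 72 h was 0.95 (at least 0.80), 1.67 and 0.88, a mean of 1.17 ± 0.44 (SD, n = 3 times; limma, adjusted p = 0.0123). The call did not hold without the 24 h pair (limma, adjusted p = 0.243) or without the time term (limma, adjusted p = 0.972).

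Adgre4, an F4/80-related adhesion receptor of monocytes and macrophages, lies at chr17:55749984-55853662. Its vehicle levels were 4.94, 7.15 and 8.81 at 6, 24 and 72 h, from below the level filter to well above it. Its heme levels were 6.28, 9.24 and 9.73. The 72 h minus 6 h difference was the widest among the receptors: 3.87 with vehicle (at least 3.44) and 3.46 with heme. The groups overlapped for that reason, yet the 24 h heme array already lay above the 72 h vehicle array.

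The difference in Adgre4 at 6, 24 and 72 h was 1.33 (at least 0.90, or 1.87-fold), 2.09 (4.26-fold) and 0.92 (1.89-fold). Its mean was 1.45 ± 0.59 (SD, n = 3 times; limma, adjusted p = 0.0107). At 24 h it ranked 38 of 11516. The call did not hold without the 24 h pair (limma, adjusted p = 0.169) or without the time term (limma, adjusted p = 0.977).

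Adgre5, which encodes CD97, a receptor for CD55, lies at chr8:83723245-83741311. Vehicle levels were 7.28, 8.52 and 8.39, and heme levels were 6.68, 8.58 and 9.60 at 6, 24 and 72 h. The heme array was the lower one at 6 h, close to vehicle at 24 h and the higher one at 72 h. The differences were -0.60, 0.06 and 1.21, the last a 2.31-fold difference that ranked 85 of 11516. Over the 3 times the mean was 0.22 ± 0.91 (SD, n = 3 times; 95% interval from limma -0.41 to 0.85; adjusted p = 0.892), and without the 72 h pair it was -0.27. Whether the difference changed with time was not tested, since no residual degrees of freedom are left for it. At 72 h the summed level of monocyte markers differed by 0.75, of stromal markers by 0.76, of dendritic cell markers by -0.60 and of eosinophil markers by -0.61, and their part in the difference of Adgre5 was not tested. The monocyte list had 3 of 5 measured markers above the filter (Plac8 and Nr4a1 were below it on every array), and 1 of them, Treml4, rose by 3.52 ± 1.16 (SD, n = 3 times; limma, adjusted p = 0.00154). Its mean was at least 3.43, and at 6, 24 and 72 h it was higher by 2.18 (at least 2.17), 4.30 (at least 4.06) and 4.07. The other monocyte markers above the filter were Ccr2, which differed by -0.20, -0.70 and -0.002 at these times, and F13a1, by -0.21, 0.12 and 1.90. The monocyte list had summed levels of 10.46 to 10.93 on vehicle and 10.46 to 11.28 on heme arrays. The stromal list had 5 of 6 (Pdgfrb was below on every array), with 9.07 to 9.91 on vehicle and 8.74 to 10.67 on heme arrays.

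**Figure D3:**
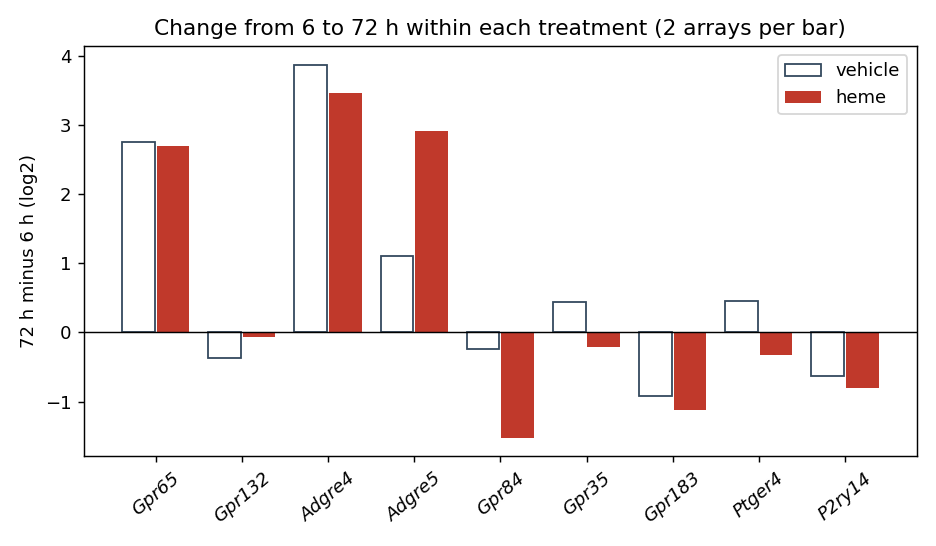
Change from 6 to 72 h on the log2 scale (vertical axis) for each receptor, open bars for vehicle and red bars for heme, each the difference of 2 arrays with no replicate. Bars of Adgre4 and Gpr65 stand at 2.69 or more in both treatments, those of Adgre5 stand at 1.11 with vehicle and 2.92 with heme, and that of Gpr84 with heme at -1.52.

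Between 6 and 72 h, 3 of 9 receptors differed 2-fold or more with vehicle, as did 4.25% of genes kept, and 5 of 9 with heme, against 6.03%. The 3 with vehicle were Adgre4, Gpr65 and Adgre5, all higher at 72 h. With heme these 3 were again higher, while Gpr84 and Gpr183 were lower at 72 h. Change within a treatment was not tested, with 1 array at each end.

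Gpr84 is coupled to inhibitory G proteins and is known to be induced in macrophages by inflammatory stimuli. Its gene lies at chr15:103308233-103310670. Vehicle levels were 5.61, 4.89 and 5.37 at 6, 24 and 72 h, the last 2 of them below the level filter. Heme levels were 7.78, 7.89 and 6.26. All heme arrays lay above all vehicle arrays, and the heme level was alike at 6 and 24 h and lower at 72 h, by a difference of -1.63 from 24 h. The difference at these times was 2.17 (4.51-fold), 2.99 (at least 2.51, or 5.70-fold) and 0.89 (at least 0.88). At 24 h it ranked 21 of 11516.

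Over the 3 times Gpr84 rose by 2.02 ± 1.06 (SD, n = 3 times; at least 1.86; limma, adjusted p = 0.0144). The call did not hold without the 24 h pair, with robust eBayes or without the time term (limma, adjusted p = 0.237, 0.128 and 0.231). The summed level of neutrophil markers also differed most at 24 h, at 13.33 on the heme and 12.29 on the vehicle array. Its differences were 0.09, 1.04 and 0.48 at 6, 24 and 72 h. At 24 h S100a8, S100a9, Camp and Ngp differed by 1.97, 2.13, 1.94 and 1.84. Mmp8, the highest of the list on the 24 h vehicle array (11.53), was the only one lower with heme there, by -0.29. Over the arrays that sum ran from 11.86 to 13.57 with vehicle and from 12.34 to 13.66 with heme. Of 11 neutrophil markers 10 reached the level filter, Retnlg was below it on every array, and 0 passed in limma, with 3 at an unadjusted p below 0.05. At 6 h Ngp, Camp, S100a8 and S100a9 differed by 0.50, 0.35, 0.28 and 0.05, and Mmp8 by -0.66. The part of the neutrophil markers in the Gpr84 difference was not tested. In bulk samples fewer cells of a type and less RNA per cell cannot be told apart.

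Gpr35, expressed by gut and myeloid cells, lies at chr1:92948052-92986391. Vehicle levels were 6.90, 7.26 and 7.34, and heme levels 7.17, 6.93 and 6.96 at 6, 24 and 72 h. Heme was higher at 6 h and lower later, and all 6 values lay between 6.90 and 7.34. The differences were 0.27, -0.33 and -0.38, with a mean of -0.15 ± 0.36 (SD, n = 3 times; 95% interval -0.51 to 0.22; limma, adjusted p = 0.873).

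Gpr183, also called EBI2, guides B cells and dendritic cells along oxysterol gradients, and lies at chr14:121952331-121965193. Vehicle levels were 7.37, 6.60 and 6.45, and heme levels 7.41, 6.84 and 6.29. The level was lower at each later time in both treatments, with 72 h minus 6 h differences of -0.92 for vehicle and -1.13 for heme. The treatments differed by 0.04 (-0.07 after median-centring), 0.24 and -0.16, a mean of 0.04 ± 0.20 (SD, n = 3 times; 95% interval -0.28 to 0.36; limma, adjusted p = 0.961). Ch25h, the enzyme that begins synthesis of the Gpr183 ligand, differed by 0.46, -0.19 and -1.26 (limma, adjusted p = 0.813, and 0.0154 without the 6 h pair). The fit with 6 h left out rests mainly on variance shared across genes. With 24 or 72 h left out Ch25h did not pass (limma, adjusted p = 0.997 and 0.820), and without 72 h its mean difference was 0.14. Hsd3b7, which breaks that ligand down, differed by 0.04, 0.43 and 0.03.

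Ptger4 encodes EP4, the prostaglandin E2 receptor that raises cyclic AMP, and lies at chr15:5233399-5244187. Vehicle levels were 7.35, 7.65 and 7.81, and heme levels 8.24, 8.07 and 7.90 at 6, 24 and 72 h. All heme arrays lay above all vehicle arrays, but the lines approached each other, because vehicle levels were higher and heme levels lower at each later time. The difference was 0.89 (1.85-fold), 0.43 and 0.10. Its mean of 0.47 ± 0.40 (SD, n = 3 times; 95% interval 0.09 to 0.85) did not pass after adjustment (limma, adjusted p = 0.304), with an unadjusted p of 0.0203. Among the enzymes that make its ligand, Ptges differed by 1.06, 1.08 (at least 0.86) and 0.24 and Ptgs2 by 0.29, 0.76 (at least 0.50) and 0.45 (limma, adjusted p = 0.0821 and 0.18). Without the 6 h pair both passed (limma, adjusted p = 0.0273 and 0.0389), and without the 72 h pair Ptges did (limma, adjusted p = 0.0133). Ptgs2 did not pass without the 72 h pair (limma, adjusted p = 0.261). Neither enzyme passed without the 24 h pair (limma, adjusted p = 0.732 and 0.931). Camp, the cathelicidin gene of the same list of ligands and enzymes, differed by 0.35, 1.94 and 0.03 (limma, adjusted p = 0.383, and 0.00302 with 6 h left out). With 24 or 72 h left out Camp did not pass (limma, adjusted p = 0.997 and 0.117). For these genes too, the fit with 6 h left out rests mainly on variance shared across genes. The related receptor Ptger2 differed by -0.91, 0.10 and 0.18 (limma, adjusted p = 0.852).

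P2ry14, the UDP-glucose receptor, lies at chr3:59114623-59153492. Vehicle levels were 10.34, 9.73 and 9.70, and heme levels 10.49, 9.89 and 9.68. The groups overlapped, and in both the 24 h level was below the 6 h level, by -0.61 with vehicle and -0.60 with heme. The difference was 0.16, 0.16 and -0.02, a mean of 0.10 ± 0.10 (SD, n = 3 times; 95% interval -0.20 to 0.40; limma, adjusted p = 0.899). Among the 9 receptors it had the smallest SD of the difference.

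Across the 6 arrays, described without a test since all pairs share the same arrays, the receptors had 3 pairs much alike. Adgre4 and Gpr65, higher at later times and higher with heme, had a Pearson r of 0.98. Gpr183 and P2ry14, lower at later times, had an r of 0.97. Gpr84 and Gpr132, which were higher with heme at all times, had an r of 0.91. Adgre5 also followed Adgre4 and Gpr65 (r of 0.84 and 0.81), and Ptger4 followed Gpr84 and Gpr132 (0.80 and 0.74), while the highest r of Gpr35 with any receptor was 0.13, with Ptger4. Adgre5 and Gpr183 ran most nearly opposite, with an r of -0.93.

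Related receptors, ligands and signalling genes were listed with these results known, and 110 of them were kept, including the 9 receptors. Of the other 101 genes, 3 rose and 1 fell, against background shares of 1.13% and 0.59%. The chemokine receptor Ccr7 rose by 1.16 ± 0.59, the acute-phase protein gene Saa3 by 2.81 ± 0.69 and the cyclic AMP phosphodiesterase Pde4b by 0.76 ± 0.15 (limma, adjusted p = 0.0279, 5.65e-04 and 0.0284). Pde4b was below the level filter on the 6 and 24 h vehicle arrays, and its mean was at least 0.48, with differences of at least 0.23, at least 0.59 and 0.61. The G protein subunit Gna12 fell by 0.65 ± 0.07 (limma, adjusted p = 0.0475), a call that did not hold after cyclic loess or a second quantile normalization, with a variance trend, or when the 24 h pair (limma, adjusted p = 0.516) or the 72 h pair (limma, adjusted p = 0.108) was left out. With the 9 receptors, 8 listed genes passed, but 1 (Saa3) when the 24 h arrays were left out and 21 when the 6 h arrays were.

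**Figure D4:**
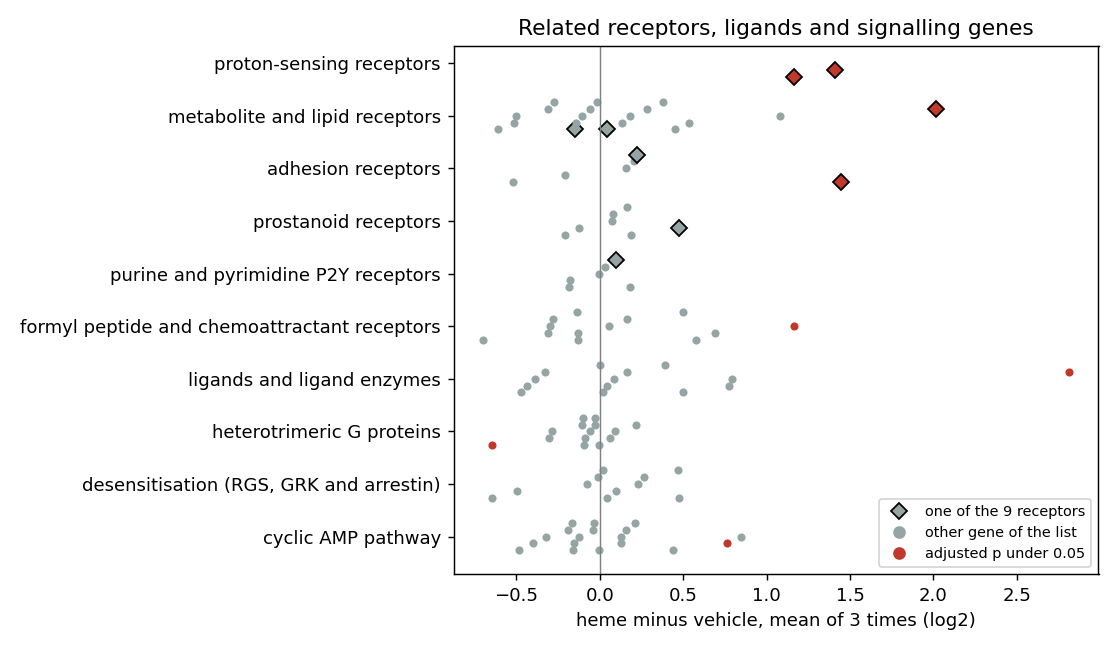
Mean heme minus vehicle difference over the 3 times (horizontal axis, log2) of each kept gene, by list (vertical axis, points spread vertically for legibility). Diamonds are the 9 receptors, circles other genes, and red marks an adjusted p under 0.05 in limma. Most other genes lie within 0.5 of 0, and the red circles are Ccr7, Saa3, Pde4b and Gna12.

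Among other receptors for metabolites and lipids, 0 of 16 passed in limma, with 6 at an unadjusted p below 0.05, and their median difference was 0.01, 0.06 and -0.11 at 6, 24 and 72 h. The sphingosine-1-phosphate receptor S1pr1 had differences of -0.70, 1.24 and 2.70 (limma, adjusted p = 0.471), and the short-chain fatty acid receptor Ffar2 of 0.03, 0.55 and 1.03 (at least 0.95; limma, adjusted p = 0.288). Both passed when 6 h was left out (limma, adjusted p = 3.98e-10 and 0.00309). Neither passed with 24 h left out (limma, adjusted p = 0.997 and 0.925) or with 72 h left out (limma, adjusted p = 0.803 and 0.585). The fit with 6 h left out called 521 genes. It rests mainly on variance shared across genes (46.9 prior degrees of freedom against 1 residual), so its small p-values say little about the spread of a single gene. The orphan receptor Gpr160 differed by -0.89, -0.72 and -0.23 (limma, adjusted p = 0.128, and 0.0479 with 72 h left out). With 6 or 24 h left out Gpr160 did not pass (limma, adjusted p = 0.184 and 0.798). The other 4 adhesion receptors kept, Adgre1, Adgrg3, Adgrg6 and Adgrl2, did not pass. Adgrl2 differed by -0.81, -0.64 and -0.10, and was the 1 with an unadjusted p below 0.05 (limma). Adgre1 differed by -0.17, 0.04 and 0.59. Of the other 6 prostanoid and 5 P2Y receptors 0 passed in limma, and 0 had an unadjusted p below 0.05. P2ry13, a relative of P2ry14, differed by -0.37, 0.21 and 0.71.

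Chemoattractant receptors counted 1 of 13 upward (Ccr7) and 0 downward in limma, with 5 at an unadjusted p below 0.05. The complement receptor C3ar1 differed by -0.73, -1.46 and 0.09 and the fractalkine receptor Cx3cr1 by 0.11, 0.23 and 1.74 (limma, adjusted p = 0.289 and 0.398). Both passed without the 6 h pair (limma, adjusted p = 0.0475 and 0.00115), as did C3ar1 when 72 h was left out (limma, adjusted p = 0.0287). Cx3cr1 did not pass with 72 h left out (limma, adjusted p = 0.739). Neither gene passed with 24 h left out (limma, adjusted p = 0.997 and 0.783). Downstream of the receptors, 1 of 14 G protein subunits passed (Gna12, downward). Of 11 genes of receptor desensitisation 0 passed in limma, with 4 at an unadjusted p below 0.05, a share of 10.6% over all genes kept. These went both ways. Rgs1, which shortens G protein signals, differed by -0.28, -0.55 and -1.10, and Rgs2 by -0.82, -0.70 and 0.03. Grk3 differed by 0.74, 0.20 and 0.48, and Arrb2 by 0.26, 0.49 and 0.65. In the cyclic AMP list 1 of 18 passed (Pde4b), and the nuclear receptor Nr4a3, a cyclic AMP-responsive gene, differed by 1.04 and 1.28 (at least 0.99) at 6 and 24 h, with both arrays below the filter at 72 h (limma, adjusted p = 0.089). Rgs1 and Nr4a3 passed without the 6 h pair (limma, adjusted p = 0.00189 and 0.0115), and Nr4a3 without the 72 h pair (limma, adjusted p = 0.0106). Rgs1 did not pass with 72 h left out (limma, adjusted p = 0.371). Neither passed with 24 h left out (limma, adjusted p = 0.684 and 0.766). All calls made here with 6 h left out have the limit given for S1pr1.

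Macrophage markers were clearly present: all 8 reached the level filter, with summed levels of 14.01 to 14.30 on vehicle and 14.05 to 14.40 on heme arrays, and differences of 0.04, 0.05 and 0.09. Of these 1 rose in limma, the lipopolysaccharide co-receptor Cd14, and 0 fell, with 3 at an unadjusted p below 0.05. Fcgr1 was lower with heme at each time, by -0.52, -0.81 and -0.41 (limma, adjusted p = 0.0999). Mrc1 differed by -0.90, -0.86 and 0.03. The sum weighs Lyz2 most, the highest of the 8 on every array, and so can hide opposite changes of other markers. Among 8 dendritic cell markers Flt3, Zbtb46 and Cd209a stayed below the filter on every array. Summed levels were 11.85 to 12.09 with vehicle and 11.24 to 12.21 with heme, with differences of 0.12, -0.19 and -0.60. In limma 1 of them rose, Ccr7, and 0 fell. Cd24a differed by -0.04, -0.72 and -1.06 and Itgax by 0.27, -0.03 and -0.50 (limma, adjusted p = 0.227 and 0.933). All 6 mast cell or basophil markers and all 5 T or NK cell markers stayed below the filter. Of the 6 eosinophil markers Ccr3 and Il5ra did, with summed levels of 8.63 to 9.90 on vehicle and 8.03 to 9.02 on heme arrays and differences of -0.88, 0.19 and -0.61. Of B cell markers 1 of 4 measured, Cd79b, reached the filter, and of 2 measured erythroid markers 0.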

How the data were processed

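The authors deposited log2 values of 35556 probe sets on 6 arrays, which came from RMA and quantile normalization with ArrayStar software, per the series' design text and the submitters' processing notes; no source used here gives versions of these tools. RMA compresses differences of dim probe sets. The platform annotation listed 1 gene for 21789 of them (symbols were checked by gene identifier against GRCm38.p6), several for 1621 and none for 12146; the first kind was used, taking the probe set with the highest mean per gene.

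Differences are heme minus vehicle (log2). The fit was limma 3.58.1 in R 4.3.3 (lmFit, eBayes, two-sided) with treatment and time as terms, 2 residual and 7.17 prior degrees of freedom, and Benjamini-Hochberg adjustment over 11516 genes. Deviations of heme and vehicle arrays from their own means correlated within each time (r = 0.56, 0.21 and 0.53 at 6, 24 and 72 h); the pairing comes from the times in the labels. A difference against a level below the filter also has a bound, written "at least", with that level set to 5.37. In 20 runs on simulated data the fit recovered 9.9% of changes of 0.5 and 89.3% of changes of 1 (log2), and 5.94% of calls were false. A receptor with a change near 0.5 can thus be missed.

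The receptors, lists and tests were chosen with earlier results of these data known. Named are all receptors, listed genes past the test and up to 3 others per list with the largest mean difference. Ch25h, Hsd3b7, Adgre1, P2ry13, Arrb2 and single cell type markers such as Cd14, Treml4 and Ccr2 are named outside that rule, after their values were seen. Promoters and motifs were handled in Python 3.11.15. Alternatives were other normalizations, level filters, probe set means, an offset of 16, fold thresholds of 1.5 and 4, robust eBayes, a variance trend, no time term, each time left out and, added after seeing the data, levels raised to the filter.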

Additional observations from a re-analysis of the deposited data

Results flagged for a closer look

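Differences between heme and vehicle with opposite signs at different times were found for 4 receptors, each from 1 array per group, and the change with time was not tested. At 6, 24 and 72 h, Adgre5 had -0.60, 0.058 and 1.21. Gpr35 had 0.27, -0.33 and -0.38. Gpr183 had 0.044, 0.24 and -0.16. P2ry14 had 0.16, 0.16 and -0.020.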

How the results depend on the processing

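The 4 upward calls and their direction were kept under 7 normalization, filter, probe set and variance settings (second quantile normalization, median-centring, cyclic loess, no filter, a filter on 3 arrays, mean of probe sets, variance trend) and without the 6 h or the 72 h pair. Robust eBayes called 3, without Gpr84. Genes called in all (198), receptors called (4) and listed genes called (8) became 18, 1 and 1 without the time term. They became 12, 0 and 1 with the 24 h arrays left out. They became 521, 4 and 21 with the 6 h arrays left out, where the prior was 46.9 degrees of freedom. Leaving out a time leaves 1 residual degree of freedom. With every level below the filter raised to it, an alternative chosen after seeing the data, 3, 0 and 0 passed in limma (5 receptors and 33 listed genes at an unadjusted p below 0.05) and the prior fell to 2.68 degrees of freedom; with only the receptors' levels raised, also chosen afterwards, the 4 receptors passed (limma, adjusted p of 0.00230 to 0.0246). Gene calls were 65.7% upward, 76.2% after cyclic loess, 94.4% without the time term, 91.7% without the 24 h pair and 100% with all levels raised. The mean reversed for Gpr183 without the 24 h pair (-0.060) and for Adgre5 without the 72 h pair (-0.27). Receptors past 2-fold (3, 4 and 2 at 6, 24 and 72 h) were 6 at 6 h (5 upward and, for Adgre5, 1 downward) and 5 at 72 h past 1.5-fold, and 1, 2 and 0 past 4-fold. Median-centring lowered 6 h differences by 0.11. The causes were not tested. No paired analysis by replicate number was possible because the labels carry none; time is in the fit. Dim levels have no exact size.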
